A study of Mus musculus with 8 samples.

Results

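Sterol and fatty acid synthesis was followed through a list of 34 genes that covers the enzymes of both pathways, the SREBP factors that control them, and genes of sterol movement and export. The list was fixed by gene name, and each gene was read from 1 probe set, the one with the highest mean log2 signal over the 8 arrays of the study. Of the 34 genes, 32 had a probe set that carried their symbol alone, and all 32 were above the detection floor of 141.88 signal units on at least 2 arrays. They stand among 8429 tested genes of 12394 genes on the arrays. Acat2 and Insig1 were not analysed here. On all 8 arrays 25 of the 32 lay above the floor, and Mvk, Tm7sf2, Dhcr7, Abca1, Acaca, Scd1 and Fads2 did not.

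The RNA came from spleen cells of C57Bl/6 mice, enriched for T cells with a magnetic pan-T kit. Mice lacking the zinc finger repressor Gfi1 were compared with wild-type mice. Cells of each genotype were taken untreated (0 h) or after culture for 4, 8 or 24 h with anti-CD3 and anti-CD28 antibodies (2 µg/ml), which stand in for antigen and costimulation. Each genotype and time was measured on 1 Affymetrix MOE430A_2.0 array, and the labels carry 1 source number per genotype, so neither a genotype difference nor a change within 1 genotype has a replicate error. How many mice each source number stands for, their age and the way the allele was made are not given in the sources used here. None of the 8 arrays holds cells cultured without antibodies, and the effect of time in culture cannot be told apart from that of the antibodies.

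The Gfi1 probe set itself gave 2316, 5979, 6459 and 9885 signal units at 0, 4, 8 and 24 h under the knockout label, against 882, 6359, 5259 and 3966 under the wild-type label. Where it lies relative to the deleted sequence is not given, so it cannot serve as a check, and each array is called by its label. Cell type markers differed between the labels. The signals of 12 T cell identity genes summed to 22502 to 52371 in knockout-labelled and 66255 to 90041 in wild-type-labelled arrays, with none of the 12 at the floor on any array. Those of 14 genes of granulocyte precursors and granulocytes summed to 6703 to 177138 in knockout-labelled and 1050.1 to 17046 in wild-type-labelled arrays. At 0 and 4 h 10 of the 13 tested genes of this list were higher under the knockout label, and Ltf, Camp and Ngp were lower. Those of 17 monocyte and macrophage genes summed to 33891 to 90060.2 in knockout-labelled and 5109 to 20346 in wild-type-labelled arrays. In the 24 h arrays 4 of the 14 granulocyte signals were at the floor under the knockout label and 13 under the wild-type label. In such bulk RNA, fewer cells of a type and less RNA per cell cannot be told apart. The part of these cell types in the differences below was not tested.

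Animal cells make cholesterol from acetyl-CoA through mevalonate, isoprenoid pyrophosphates, squalene and lanosterol, and make fatty acids from malonyl-CoA. When membrane sterol is low, SCAP carries the SREBP precursors to the Golgi, where they are cut, and the freed factors switch on nearly all enzymes of the sterol route. INSIG proteins hold SCAP back when sterol is plentiful. Oxysterols act the other way through LXR, which switches on the exporters ABCA1 and ABCG1. T cells that leave rest after antigen receptor stimulation are known to turn on SREBP targets and to turn down sterol export, as they build membrane before dividing.

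The sterol enzymes followed different courses under the 2 labels. In the knockout-labelled cells most of them were highest at 8 h and lower again by 24 h, whereas in the wild-type-labelled cells most were highest at 24 h. Of 17 measured enzymes from Hmgcs1 to Dhcr7, 13 had their highest knockout-labelled signal at 8 h and 11 had their highest wild-type-labelled signal at 24 h. Between 8 and 24 h 14 of the 17 moved in opposite directions, down in knockout-labelled and up in wild-type-labelled arrays, the exceptions being Lss, Hsd17b7 and Tm7sf2. For Lss and Hsd17b7 this depends on the probe set. A further one of Hsd17b7 changed by -0.435 in knockout-labelled and 0.256 in wild-type-labelled arrays. One of Lss, above the floor on 4 arrays, changed by -0.587 and 0.156. At 8 h the knockout-labelled signal was the higher one for 16 of the 17 and equal, at the floor, for Tm7sf2, with a median log2 difference of 1.15. At 24 h it was the lower one for 12 of the 17, with a median of -0.35. Of all 8429 tested genes, 3447 were higher under the knockout label at 8 h and 3856 lower at 24 h. From 8 to 24 h 3638 of them went down in knockout-labelled and 3745 went up in wild-type-labelled arrays. How many of all genes had such peak times, or moved in opposite directions, was not counted. Peak times, opposite moves and the 8 h difference all share the single 8 h array of each label.

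**Figure D1:**
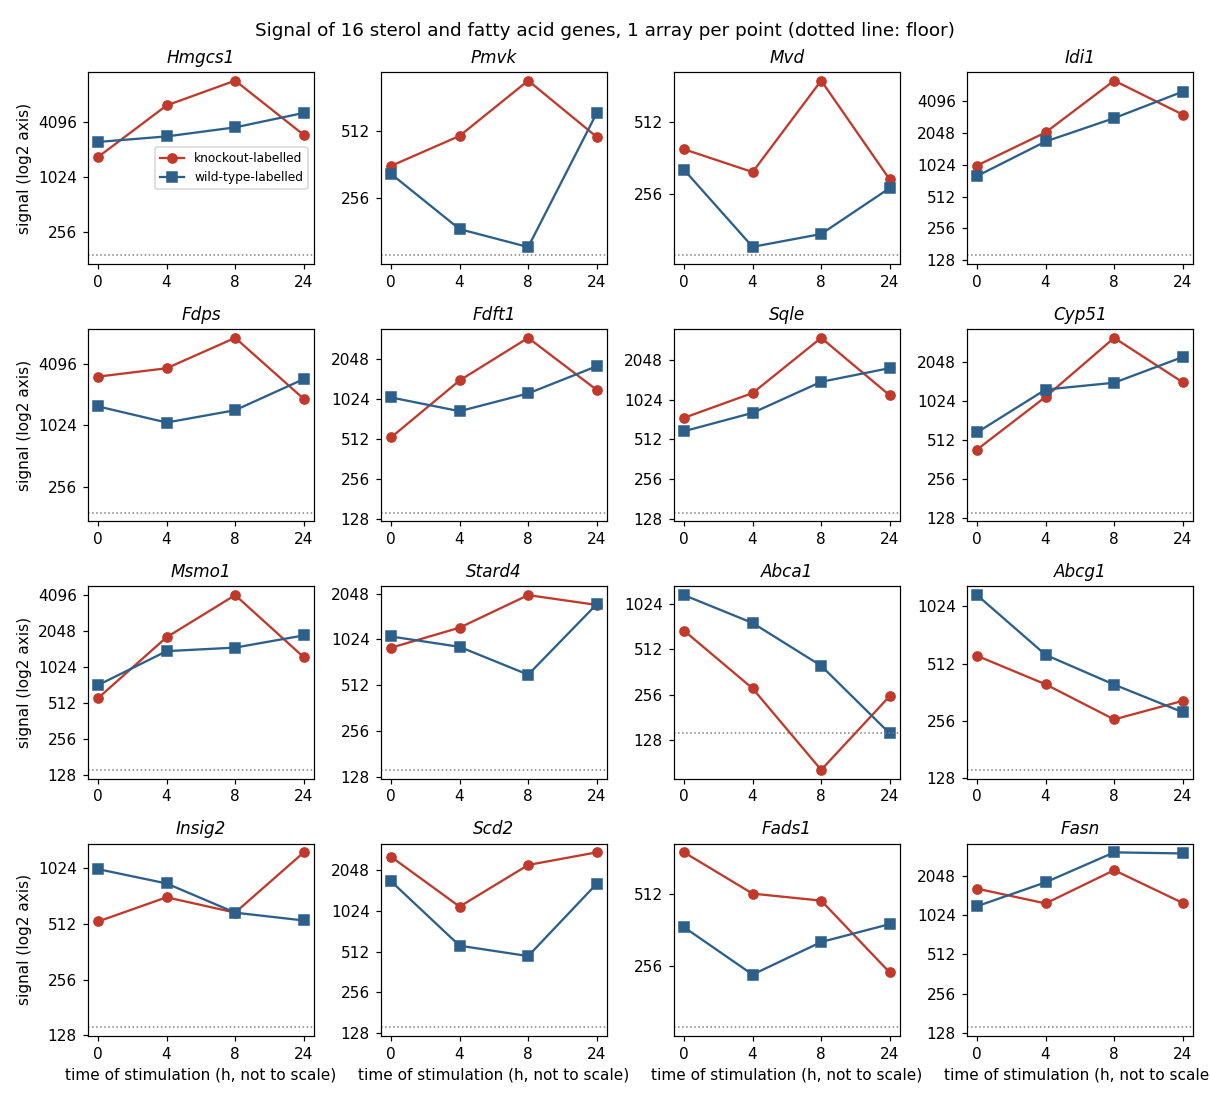
Signal (log2 axis) of 16 members against time of stimulation; each point is 1 array, red circles knockout-labelled, blue squares wild-type-labelled, and the dotted line is the floor of 141.88. Most knockout-labelled lines of the sterol enzymes peak at 8 h, for Hmgcs1 at 11577, while most wild-type-labelled ones are highest at 24 h, for Hmgcs1 at 5132.

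Over all 32 members, 14 were at least 2-fold higher under the knockout label at 8 h (43.8%), against 10.7% of all tested genes, and 1 was at least 2-fold lower (3.12%), against 6.69%. The median member difference at 8 h was 0.83 on the log2 scale, where the median of all tested genes was -0.08. At 0 h 2 members were higher and 1 lower (8% and 6.79% of all genes), with a member median of -0.16. At 4 h 5 were higher and 1 lower (11.7% and 6.56% of all genes), with a median of 0.08. At 24 h 2 were higher and 2 lower (9.15% and 5.05% of all genes), with a median of -0.23. The share of higher members thus lay above the background share at 8 h, and at 0 and 24 h each direction held 1 or 2 members. The 3′ to 5′ signal ratio of Gapdh, a sign of RNA integrity, was 0.77 under the knockout label and 0.939 under the wild-type label at 8 h, with a range over all arrays of 0.725 to 0.939, and its part in the 8 h difference was not tested.

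**Figure D2:**
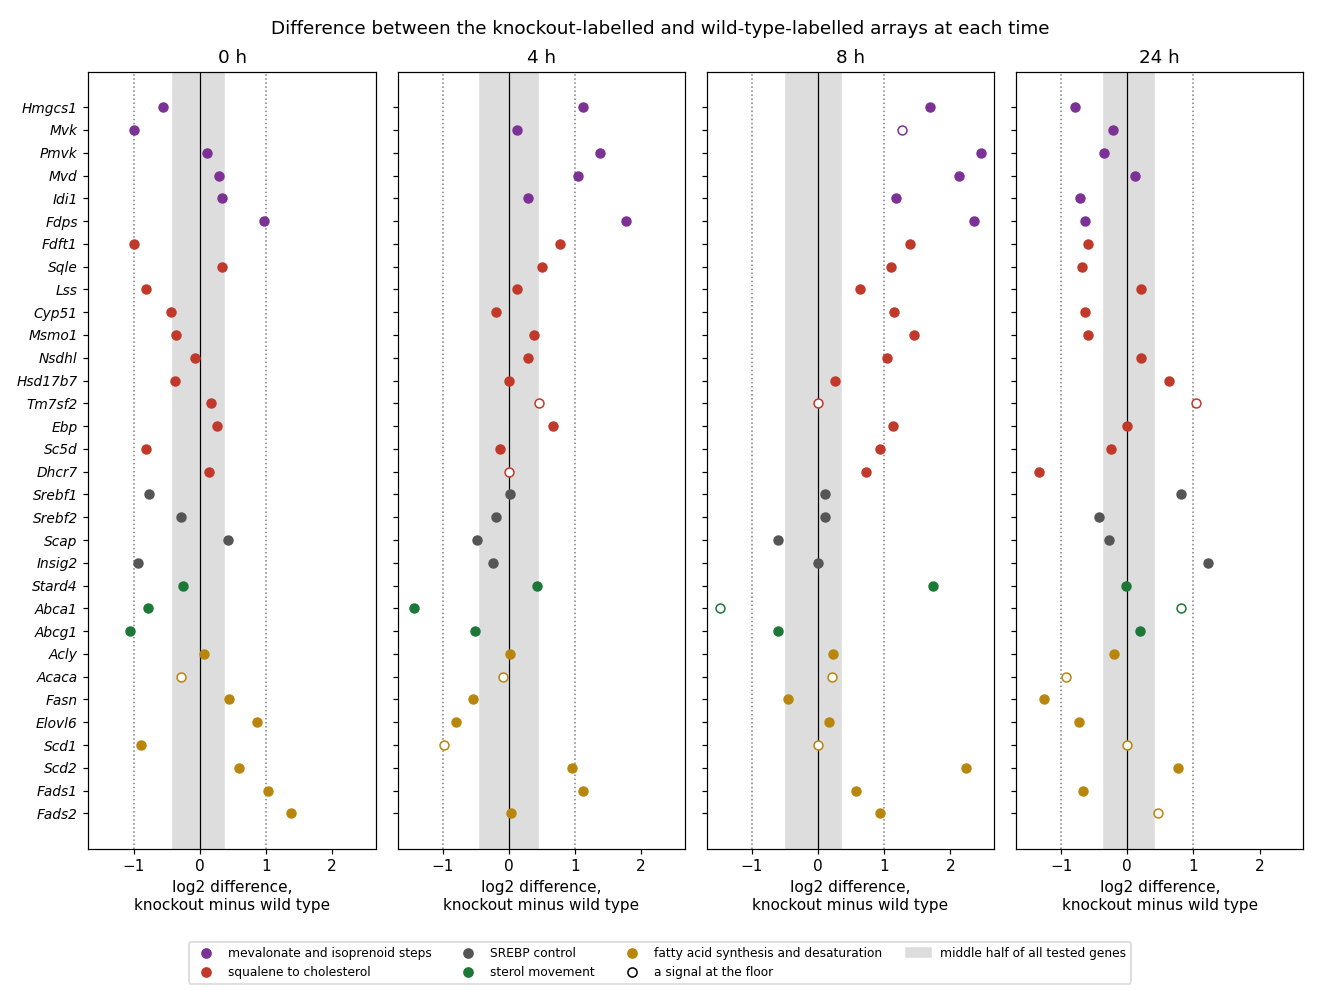
Log2 difference of each member, knockout-labelled minus wild-type-labelled, in 4 panels for 0, 4, 8 and 24 h; colours give the role, open points rest on a signal at the floor, the grey band runs from the 25th to the 75th percentile of all tested genes and dotted lines mark 2-fold. At 8 h 14 of 32 points lie right of the 2-fold line, and at 24 h 2 do.

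The changes within each genotype use the same 8 h arrays, so they are not a second measurement of the 8 h difference. From 0 to 8 h 13 of 32 members were at least 2-fold higher under the knockout label (6.79% of all genes were) and 3 at least 2-fold lower (9.78% of all genes). In the wild-type-labelled cells 5 were higher (8.3% of all genes) and 7 lower (14.2% of all genes) over the same interval. From 8 to 24 h 9 members were at least 2-fold lower under the knockout label, against 7.27% of all genes, and 2, Tm7sf2 and Insig2, were higher, against 6.15%. In the wild-type-labelled cells 5 were at least 2-fold higher from 8 to 24 h, against 5.09% of all genes, and Abca1 was lower, against 6.69%. The response from 0 to 8 h was at least 4-fold greater under the knockout label for Hmgcs1, Pmvk and Fdft1 (3 of 32, 1.19% of all genes), and that from 8 to 24 h was at least 4-fold lower for Hmgcs1, Pmvk, Mvd, Fdps, Msmo1 and Dhcr7 (6 of 32, 1.85% of all genes), counting only genes with all 4 signals above the floor. For Hmgcs1 from 0 to 8 h only the reported probe set reached 4-fold.

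**Figure D3:**
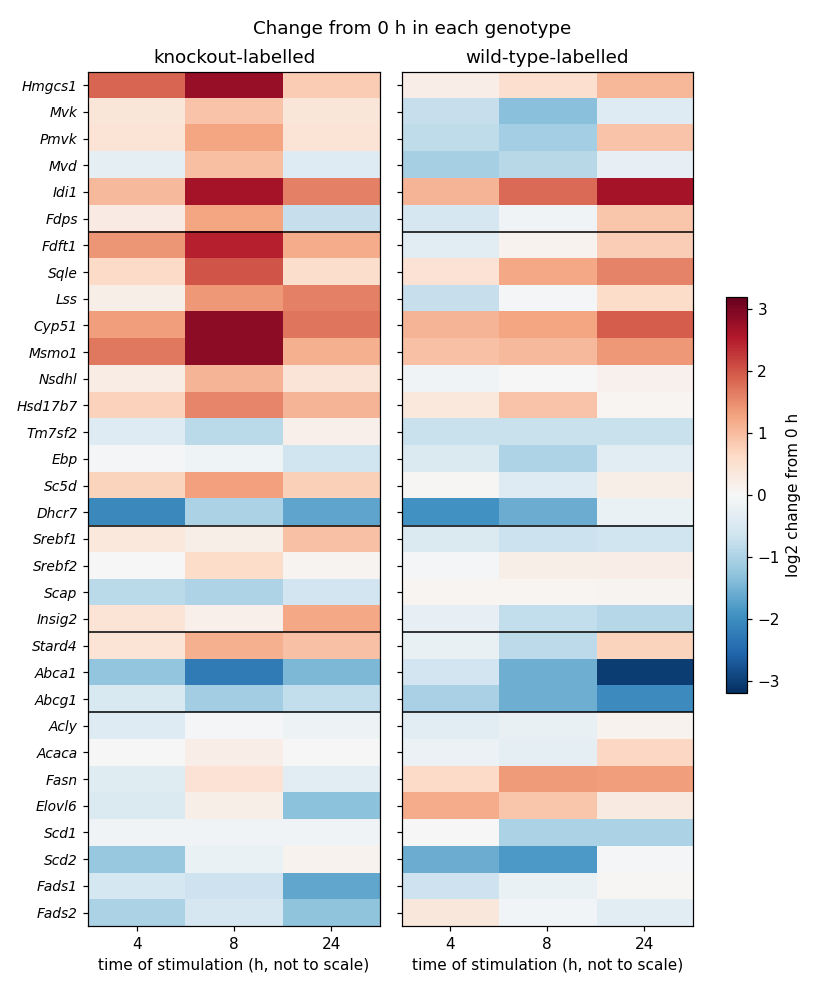
Log2 change from 0 h at 4, 8 and 24 h, knockout-labelled on the left and wild-type-labelled on the right, with members in rows and black lines between roles; red is higher than at 0 h. Most sterol enzyme rows are darkest red at 8 h on the left, with Cyp51 at 2.86, and at 24 h on the right, with Idi1 at 2.65, while Dhcr7 is blue throughout.

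The start-site regions of 5 members are shown because SREBP factors act at promoters together with the CCAAT-binding factor NF-Y and with Sp1, which binds GC boxes. Hmgcs1, Idi1, Cyp51 and Msmo1 stand for the enzymes at least 2-fold higher at 8 h than at 0 h under the knockout label, and Abca1 for the exporters. Each is the 250 bases before a RefSeq start (build GRCm38.p6), written 5′ to 3′ on the gene's strand. For Abca1 that start lies inside the annotated gene, which reaches to chr4:53159988, so part of its stretch lies inside the gene. They lie at chr13:119690101-119690350 (plus strand) for Hmgcs1, chr13:8885356-8885605 (plus strand) for Idi1, chr5:4104698-4104947 (minus strand) for Cyp51, chr8:64733579-64733828 (minus strand) for Msmo1 and chr4:53159896-53160145 (minus strand) for Abca1. Capitals mark matches on either strand to TCACNCCAC, a sterol element pattern, to CCAAT, to GGGCGG and to the E-box CACGTG.
Hmgcs1: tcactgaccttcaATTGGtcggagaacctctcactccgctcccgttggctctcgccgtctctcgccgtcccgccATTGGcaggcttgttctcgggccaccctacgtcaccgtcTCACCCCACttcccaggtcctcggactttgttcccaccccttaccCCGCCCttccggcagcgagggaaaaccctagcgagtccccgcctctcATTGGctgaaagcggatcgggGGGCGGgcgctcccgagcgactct
Idi1: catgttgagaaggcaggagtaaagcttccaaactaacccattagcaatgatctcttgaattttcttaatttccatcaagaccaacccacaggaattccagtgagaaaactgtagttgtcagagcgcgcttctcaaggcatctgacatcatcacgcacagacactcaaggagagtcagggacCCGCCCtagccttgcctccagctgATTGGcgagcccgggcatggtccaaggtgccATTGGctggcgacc
Cyp51: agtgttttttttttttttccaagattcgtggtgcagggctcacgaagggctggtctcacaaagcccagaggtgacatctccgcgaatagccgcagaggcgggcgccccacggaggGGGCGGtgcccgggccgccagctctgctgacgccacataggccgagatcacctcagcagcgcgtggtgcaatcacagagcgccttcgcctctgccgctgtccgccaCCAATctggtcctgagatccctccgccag
Msmo1: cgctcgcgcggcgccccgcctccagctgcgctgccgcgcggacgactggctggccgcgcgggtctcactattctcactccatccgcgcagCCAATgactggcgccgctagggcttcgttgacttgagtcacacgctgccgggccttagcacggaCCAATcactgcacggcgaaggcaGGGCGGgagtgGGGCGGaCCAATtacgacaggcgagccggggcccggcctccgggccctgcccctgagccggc
Abca1: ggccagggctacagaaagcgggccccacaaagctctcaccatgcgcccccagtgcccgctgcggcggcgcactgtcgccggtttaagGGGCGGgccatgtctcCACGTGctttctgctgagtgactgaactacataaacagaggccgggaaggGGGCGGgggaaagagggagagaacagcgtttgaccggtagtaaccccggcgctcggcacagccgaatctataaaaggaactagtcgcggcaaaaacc

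Of the 34 listed genes, 26 had an entry among the RefSeq promoter windows, which run from 250 bases before to 50 after a start. CCAAT stood in a window of 20 of these 26 genes (76.9%), and in 21 of their 34 windows (61.8%) against 37.4% of 32851 windows of all genes. Of the 9 members with a window that were at least 2-fold higher under the knockout label at 8 h, 9 held the CCAAT box, 8 the GC box, 1 the sterol element pattern and 0 the E-box. GGGCGG stood in 26 of the 34 member windows (76.5%) against 35.7% of all windows, and CACGTG in 7 (20.6%) against 7.15%. TCACNCCAC was found for Hmgcs1 alone among the 26, 137 bases before its start, and in 1.24% of all windows. Both strands were searched, and overlaps between motifs were allowed. A match is a description of the letters and not of binding.

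Among the enzymes from mevalonate to farnesyl pyrophosphate, all 6 measured members were at least 2-fold higher under the knockout label at 8 h and 4 already at 4 h. Hmgcs1, which makes the HMG-CoA that feeds mevalonate synthesis, gave 1691, 6195, 11577 and 2951 in knockout-labelled arrays at 0, 4, 8 and 24 h, against 2469.5, 2841, 3566 and 5132 in wild-type-labelled ones. Its knockout-labelled signal was the lower one at 0 and 24 h and 3.25-fold higher at 8 h. The lower value at 0 h was that of the reported probe set, and the further ones differed by -0.012, -0.001 and 0.051 there. Fdps, the synthase of farnesyl pyrophosphate, gave 3080.2, 3724, 7407 and 1862 under the knockout label and 1571, 1090.2, 1441 and 2913 under the wild-type label, so that a 5.14-fold excess at 8 h stood beside a lower knockout-labelled value at 24 h.

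Pmvk, the second kinase of the mevalonate route, gave 356, 484.5, 855 and 479 in knockout-labelled arrays, against 328, 186, 155 and 613 in wild-type-labelled ones. The 8 h difference, 5.53-fold, joined a higher knockout-labelled signal at 8 h than at 0 h to a lower wild-type-labelled one. Mvd, the decarboxylase that yields isopentenyl pyrophosphate, gave 395, 317, 765.5 and 295 under the knockout label, against 324, 154, 174 and 272 under the wild-type label, a 4.39-fold difference at 8 h. The first kinase, Mvk, gave 182, 236, 343.5 and 236 under the knockout label, against 361, 216, 139 and 273 under the wild-type label, and its 8 h difference is at least 2.42-fold because the wild-type-labelled signal was under the floor. These 3 genes have low signals, the highest being 855, and at 8 h the wild-type-labelled ones of Pmvk and Mvd lay close to the floor.

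Idi1, the isomerase that supplies dimethylallyl pyrophosphate, was the 1 member that passed the test of stimulation. It gave 1006, 2069.6, 6397 and 3052 in knockout-labelled arrays at 0, 4, 8 and 24 h and 800.1, 1697.5, 2824 and 5029.8 in wild-type-labelled ones. Both genotypes were higher at every later time than at 0 h. Averaged over the genotypes, Idi1 rose by 2.13 on the log2 scale from 0 to 24 h (SE 0.42, limma adjusted p = 0.0479). The change at 8 h was 2.24 (SE 0.42) and missed the threshold (limma adjusted p = 0.0528). The 24 h call sits at the edge of the test. The adjusted p was 0.0574 without a variance trend, 0.0671 with a higher floor and 0.235 with no filter on low values, and the call was lost on leaving out any 1 of 7 of the 8 arrays, the knockout-labelled 24 h array being the exception.

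Across the test of stimulation, 0 of 32 members rose and 0 fell at 4 h, beside 0.807% and 0.605% of all genes, and 0 rose and 0 fell at 8 h, beside 1.19% and 1.23%. At 24 h 1 rose and 0 fell, beside 1.49% and 2.47%. This limma test sets the change shared by the genotypes against the difference between their responses, which was wide for these genes, with a median residual SD of 0.53 for members and 0.31 for all tested genes. At an unadjusted p under 0.05 limma gave 3, 6 and 5 members higher at 4, 8 and 24 h, beside 5.52%, 7.3% and 7.68% of all genes. It gave 2, 5 and 2 members lower, beside 8.85%, 12.9% and 14.2% of all genes. By size alone, Idi1, Sqle, Cyp51 and Msmo1 were at least 2-fold higher at 8 h than at 0 h in both genotypes, and Dhcr7, Abca1 and Abcg1 at least 2-fold lower in both. Such changes in both genotypes were seen for 3.3% and 5.27% of all tested genes.

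From squalene to cholesterol, 6 of 11 measured enzymes were at least 2-fold higher under the knockout label at 8 h, with a median log2 difference of 1.04 over the 11. Fdft1, the squalene synthase, gave 522, 1401, 2930.3 and 1189.5 in knockout-labelled arrays, against 1044, 823, 1119 and 1792 in wild-type-labelled ones. Its log2 difference was -0.998 at 0 h, and it was 2.62-fold higher under the knockout label at 8 h. Sqle, which puts the first oxygen into squalene, gave 745, 1148, 3012.5 and 1103 under the knockout label, against 589, 812, 1397 and 1775 under the wild-type label, a log2 difference of 1.11 at 8 h and -0.69 at 24 h.

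Cyp51, the lanosterol demethylase, gave 435, 1107.5, 3157 and 1435 in knockout-labelled arrays and 589, 1261, 1423 and 2247 in wild-type-labelled ones. Its values were alike at 4 h, with a log2 difference of -0.19, and parted at 8 h, with one of 1.15. Msmo1, the methylsterol oxidase that acts after Cyp51, gave 562, 1806, 4052 and 1232 under the knockout label, against 721, 1384, 1481 and 1870.5 under the wild-type label. Both genes were higher at 8 h than at 0 h in each genotype, by 2.86 and 2.85 on the log2 scale in knockout-labelled cells and by 1.27 and 1.04 in wild-type-labelled cells. The matching promoter letters of these 2 enzymes are CCAAT and GGGCGG.

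The other enzymes of the route were more mixed. Nsdhl, which removes a carboxyl group from the sterol ring, and Ebp, the sterol isomerase, were 2.06-fold and 2.19-fold higher under the knockout label at 8 h. For Ebp the knockout-labelled signal was close to level from 0 to 8 h, at 2543, 2430.4 and 2321, and the wild-type-labelled one was lower, at 2117, 1529 and 1060.4. Sc5d, the lathosterol desaturase, differed by 0.93 at 8 h, Lss, the lanosterol synthase, by 0.64 and Hsd17b7, a ketosteroid reductase, by 0.26. The further probe set of Hsd17b7 differed by 1.04 at 8 h. Dhcr7, the last reductase of the route, was lower at 4, 8 and 24 h than at 0 h in both genotypes. It gave 597, 98.9, 297 and 184 in knockout-labelled arrays, against 539, 129, 179.9 and 466 in wild-type-labelled ones, under the floor in both at 4 h. Its log2 difference at 24 h was -1.34. Tm7sf2, a sterol reductase, was under the floor on 4 arrays and at least 2.05-fold higher under the knockout label at 24 h.

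The genes that control SREBP did not share the 8 h difference of the enzymes. None of the 4 measured was at least 2-fold apart at 0, 4 or 8 h, and their median difference at 8 h was 0.05. Srebf2, whose product drives the sterol enzymes, gave 888, 901, 1324 and 939.6 in knockout-labelled arrays, against 1083, 1029.5, 1230.5 and 1264 in wild-type-labelled ones, a log2 difference of 0.11 at 8 h. Its further probe set, above the floor on all 8 arrays, differed by -0.47 at 8 h and -0.76 at 24 h. Srebf1, whose product drives fatty acid synthesis, gave 1266, 1587, 1434 and 2423 under the knockout label, against 2152, 1569, 1339 and 1379.7 under the wild-type label. The 2 transcripts differed by less than 2-fold between genotypes at every time. Scap, the escort of the precursors, gave 2295, 1263, 1163 and 1502 under the knockout label, against 1700.3, 1762, 1769 and 1822 under the wild-type label.

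Insig2, which retains SCAP in the endoplasmic reticulum, ran the other way from the enzymes at the end of the culture. Its signals were 527, 712, 589 and 1245 in knockout-labelled arrays, against 1011, 845, 588 and 534 in wild-type-labelled ones. The knockout-labelled value was the lower one at 0 h, with a log2 difference of 0.00 at 8 h, and 2.33-fold higher at 24 h, and its other 2 probe sets differed by 0.83 and 1.11 at 24 h. From 0 to 24 h it was higher by 1.24 on the log2 scale in knockout-labelled cells and changed by -0.92 in wild-type-labelled cells. The probe set that differed by 1.11 was higher at 24 h than at 0 h in both genotypes.

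Of the 3 genes of sterol movement, Stard4 was at least 2-fold higher and Abca1 at least 2-fold lower under the knockout label at 8 h. Stard4, a carrier of cholesterol through the cytosol, gave 903, 1224, 2005 and 1727.5 in knockout-labelled arrays, against 1071, 915, 600.4 and 1746.5 in wild-type-labelled ones, 3.34-fold higher at 8 h and with a log2 difference of -0.02 at 24 h. Abca1, which exports cholesterol to apolipoproteins, gave 679.5, 281, 81.0 and 250.1 under the knockout label, against 1169.9, 764, 397 and 141 under the wild-type label. It was at least 2.8-fold lower under the knockout label at 8 h, where that signal lay under the floor. Abcg1, the second exporter, gave 563, 399, 261 and 327 under the knockout label, against 1172, 569.5, 397.5 and 285 under the wild-type label. Its log2 difference was -1.06 at 0 h and -0.61 at 8 h, and that of Abca1 was already -0.78 at 0 h. Both exporters were at their highest at 0 h in each genotype. Averaged over genotypes their changes at 24 h were -2.24 and -1.41 on the log2 scale, and neither passed (limma adjusted p = 0.0905 and 0.102).

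Fatty acid synthesis did not follow the sterol enzymes as a group. Of its 8 members 1 was at least 2-fold higher under the knockout label at 8 h and 0 were lower, with a median difference of 0.22. Fasn, the fatty acid synthase, gave 1635.5, 1260.1, 2266 and 1270.3 in knockout-labelled arrays, against 1199.9, 1829, 3104 and 3045 in wild-type-labelled ones, lower under the knockout label from 4 h on, with a log2 difference of -1.26 at 24 h. Acly, which makes cytosolic acetyl-CoA, stayed within a log2 difference of 0.23 at every time in the reported probe set, at 3282 to 4342 under the knockout label and 3256.5 to 4505 under the wild-type label. One further probe set differed by 0.61 at 8 h and -0.34 at 24 h, and another by -0.35 at 0 h and 0.36 at 8 h. Elovl6, an elongase, differed by 0.87, -0.80, 0.16 and -0.73 at 0, 4, 8 and 24 h. Acaca, the acetyl-CoA carboxylase, had signals of 113 to 164 under the knockout label and 134 to 271.5 under the wild-type label, and was under the floor on 4 arrays.

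Of the 4 desaturases, Scd2 was at least 2-fold higher under the knockout label at 8 h, Fads1 and Fads2 differed by 0.58 and 0.94, and Scd1 was at the floor in both arrays. The further probe set of Fads2 differed by at least 1.17 at 8 h, with the wild-type-labelled signal under the floor. Scd2, a stearoyl-CoA desaturase, gave 2573, 1102.5, 2239 and 2775 in knockout-labelled arrays, against 1696, 567, 475 and 1626.5 in wild-type-labelled ones. Both genotypes were lower at 4 h than at 0 h, and at 8 h the knockout-labelled signal was near its 0 h level while the wild-type-labelled one was still low, a 4.71-fold difference. Scd1, its close relative, was above the floor on 3 arrays only, at 153 (knockout-labelled, 0 h) and at 284 and 280.3 (wild-type-labelled, 0 and 4 h). Fads1, a front-end desaturase of polyunsaturated fatty acids, gave 766, 514, 481 and 240.4 under the knockout label, against 372, 236, 322.5 and 383 under the wild-type label, while Fads2, the other one, gave 475, 236, 326 and 196 under the knockout label, against 181, 231.5, 169.6 and 83.8 under the wild-type label. Both were at least 2-fold higher under the knockout label before any stimulation, by 1.04 and 1.39 on the log2 scale.

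Several probe sets read the same gene for 16 members, which gives a check within each array. At 8 h 17 of 21 further tested probe sets had the same sign of difference as the probe set reported, and 12 of the 21 were at least 2-fold higher under the knockout label. The median gap between 2 probe sets of a gene was 0.34 on the log2 scale at 8 h and 0.28 at 24 h. For Hmgcs1 the 3 further probe sets differed by 1.34, 1.26 and 1.51 at 8 h, beside the 1.70 reported. From 0 to 8 h these 3 changed by 2.17, 2.02 and 2.04 under the knockout label and by 0.81, 0.755 and 0.58 under the wild-type label. The reported probe set changed by 2.78 and 0.53, and it alone reached a 4-fold gap in response over that interval. The largest gap at 8 h, 1.49, was that of Abca1, whose other tested probe set was under the floor in both 8 h arrays, at 70.7 and 141.5. Probe sets of a gene share the RNA and the array, so this agreement says nothing of the spread between animals. With the median over the probe sets of each gene, 0 members were at least 2-fold lower at 8 h, Abca1 differing by -0.74 there.

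**Figure D4:**
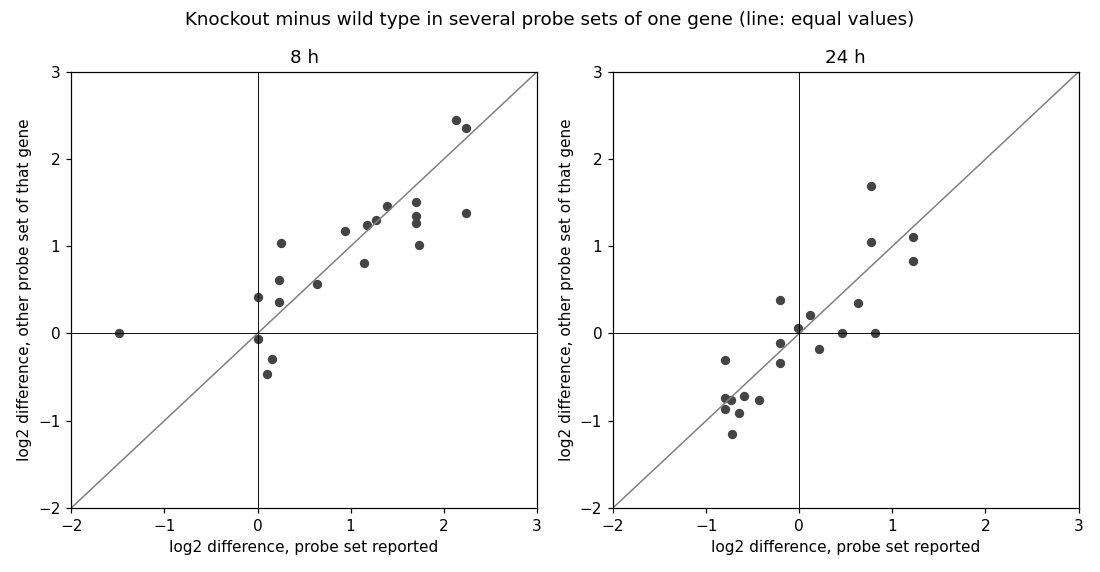
Log2 difference, knockout-labelled minus wild-type-labelled, in the 21 further probe sets of 16 members (vertical axis) against the reported probe set of that gene (horizontal axis), at 8 h on the left and 24 h on the right; the line marks equal values. At 8 h 17 of 21 share the sign, and the point far left is Abca1 at -1.49.

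Further genes of sterol and lipid supply did not reach 2-fold between the labels at 8 h. Among 18 such genes, 0 were at least 2-fold higher and 0 lower under the knockout label at 8 h, beside 10.7% and 6.69% of all genes. Their median difference was 0.01. In the test of stimulation 0 of these 18 rose at any time, beside 0.807%, 1.19% and 1.49% of all genes at 4, 8 and 24 h. Falls were called for 1.23% of all genes at 8 h and 2.47% at 24 h. The acetyl-CoA synthetase Acss2 fell by 2.35 from 0 to 8 h (SE 0.42, limma adjusted p = 0.0476) and the elongase Elovl5 fell by 1.36 from 0 to 24 h (SE 0.20, limma adjusted p = 0.0230). Among 11 genes of the LXR axis, sterol storage and lysosomal release 2 were at least 2-fold higher and 2 lower at 8 h. The shares of all genes were 10.7% and 6.69%, and the median of the 11 was 0.14. Of these 11, 2 fell from 0 to 24 h, beside 2.47% of all genes. They were Mylip, an LXR-induced ubiquitin ligase, by 2.13 (SE 0.42, limma adjusted p = 0.0480) and the lysosomal lipase Lipa by 1.52 (SE 0.29, limma adjusted p = 0.0420). The direction for Mylip is that of Abca1 and Abcg1.

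Many genes of fatty acid oxidation were also higher under the knockout label. Of 16 tested, 7 exceeded 2-fold at 4 h, beside 5 of 32 members and 11.7% of all genes, and 7 did at 8 h, beside 14 of 32 members and 10.7% of all genes, with medians of 0.70 and 0.58, and 0 rose or fell in the test of stimulation at 4, 8 or 24 h. Cpt1a, the transferase that admits fatty acids to mitochondria, differed by 0.45, 1.77, 2.10 and 0.135 at 0, 4, 8 and 24 h.

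Cell division and cell type genes also differed between these arrays. The 19 tested cell division genes had median differences of 1.05, 2.145, 1.35 and -1.09 at 0, 4, 8 and 24 h, above 0 to 8 h and below it at 24 h. The genes of granulocyte precursors and granulocytes had medians of 3.40, 4.335, 4.34 and 1.35, with 3 of the 13 tested below 0 at 0 and 4 h. The monocyte and macrophage genes had medians of 1.15, 2.60, 2.74 and 2.16, and the T cell identity genes -1.79, -1.70, -1.64 and -0.29. The mevalonate enzymes had medians of 0.20, 1.08, 1.92 and -0.50, and the enzymes from squalene to cholesterol -0.36, 0.29, 1.04 and -0.245. Relative to the median of the T cell identity list 31 of 32 members passed 2-fold upward at 8 h, and so did 82.1% of all tested genes, since this scale raises every difference by 1.64. The part of these cell types and of cell division in the member differences was not tested.

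**Figure D5:**
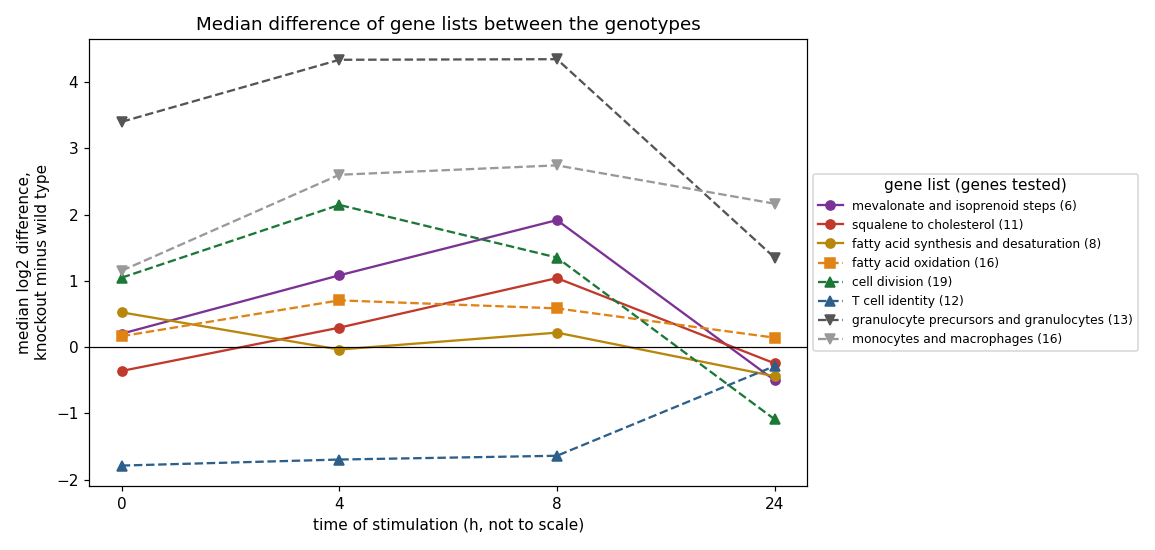
Median log2 difference, knockout-labelled minus wild-type-labelled, of 8 gene lists against time; solid lines are member groups and dashed lines other lists, with the number of tested genes in the key. The mevalonate line goes from 0.20 at 0 h to 1.92 at 8 h and -0.50 at 24 h, while the T cell identity line stays between -1.79 and -1.64 to 8 h.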

How the data were processed

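The authors deposited 1 MAS5 signal per probe set and array, a linear intensity, with GCOS 1.4 and MAS5 named in the submitters' processing notes. Every array has the same trimmed mean, so the deposited intensity values are already scaled. No deposited column was left unused (0). Signals under 141.88, the median over arrays of the 40th percentile, were set to that floor, and log2 was taken. Of 22690 probe sets, 15062 were above it on at least 2 arrays. Stimulation was tested with limma 3.58.1 in R 4.3.3 (time and genotype as terms, variance trend, 8 arrays, 3 residual degrees of freedom, Benjamini-Hochberg adjustment over 15062 probe sets). A call needs an adjusted p under 0.05 and a change of at least 2-fold. With 1 array per genotype and time, genotype differences are given by size, at least 2-fold, or 4-fold between responses. The p-values set the shared change against the difference between the responses of the 2 genotypes, which may be technical in part. They do not measure the spread between animals. The limma step was tested on simulated data with independent noise and the same change in both genotypes. These arrays differ from that setting, so the simulation does not bear on the calls made here. Genes detailed by rule are the 10 members with the largest mean absolute difference and members set by role; the other members named were chosen after their values were seen. Members and lists were chosen with earlier results of these data known. Tables and figures were made with python 3.11.15, pandas 2.3.3, numpy 2.4.6 and matplotlib 3.10.9. Alternatives covered scaling, floor, probe set choice, filter, variance model, fold and leaving out each array.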

Additional observations from a re-analysis of the deposited data

Results flagged for a closer look

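In 8 cases a member changed in opposite directions in the 2 genotypes over the same interval, with a gap of at least 4-fold and all signals above the floor. None of these differences was tested, since each rests on 1 array per genotype and time. From 0 to 8 h Pmvk was higher by 1.26 on the log2 scale in knockout-labelled cells and changed by -1.08 in wild-type-labelled cells, a gap of 2.35. From 0 to 24 h Insig2 changed by 1.24 and -0.92, a gap of 2.16. Its further probe sets did not reach a 4-fold gap. One went from 181 to 574 under the knockout label and from 234 to 266 under the wild-type label, up in both. Another went from 663 to 1049 and from 1060 to 589.

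The other 6 lie between 8 and 24 h, where the knockout-labelled signal came down and the wild-type-labelled one went up. The gap was -3.01 for Fdps, with changes of -1.99 under the knockout label and 1.01 under the wild-type label. It was -2.82 for Pmvk (-0.83 and 1.99), -2.50 for Hmgcs1 (-1.97 and 0.53) and -2.06 for Dhcr7 (-0.69 and 1.37). Msmo1 had a gap of -2.06 (-1.72 and 0.34) and Mvd one of -2.01 (-1.38 and 0.64).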

How the results depend on the processing

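The 4 arrays of a genotype share 1 source number, so the genotype term of the stimulation test is also a block on the source. No paired analysis was possible because the genotypes share no replicate number. The count of 14 members at least 2-fold higher under the knockout label at 8 h stayed within 1.5 times of that value under every scaling, floor and probe set setting run. It was not recalculated without the filter on low values. That count was 6 at 3-fold and 31 relative to the T cell list (chosen after seeing the data), a scale on which 82.1% of all genes passed too. Dividing arrays by their medians moved the median of all genes to -0.12, -0.16 and -0.20 at 4, 8 and 24 h and reversed the member median at 4 h, to -0.012. Counts under the knockout label at 0, 4 and 24 h are small and depend on the setting, and the cause was not tested. With array medians they came to 3 lower (0 h), 2 higher and 2 lower (4 h), 0 higher and 5 lower (24 h). With quantile normalization they came to 2 lower (0 h), 2 lower (4 h) and 1 higher (24 h). A floor at the 60th percentile gave 0 higher at 0 h, 2 higher and 0 lower at 4 h, 0 lower at 8 h, and 1 higher and 1 lower at 24 h, and one at the 20th percentile 2 lower at 4 h. Adding the floor value to the signal gave 0 higher and 0 lower at 0 h, 2 higher at 4 h, and 1 higher and 1 lower at 24 h. The median over probe sets gave 3 higher and 0 lower at 4 h and 0 lower at 8 h. At 1.5-fold the counts higher and lower came to 5 and 9 (0 h), 8 and 3 (4 h) and 6 and 12 (24 h), with 3 lower at 8 h. At 3-fold they came to 0 and 0 (0 h), 1 and 0 (4 h) and 0 and 0 (24 h), with 0 lower at 8 h.

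Of changes within a genotype, those at least 2-fold lower from 0 to 8 h under the knockout label numbered 1 with quantile normalization, array medians or the added floor value, 0 with the 60th percentile floor, 6 at 1.5-fold and 1 at 3-fold. Those higher from 0 to 8 h numbered 6 (knockout label) and 1 (wild-type label) at 3-fold, and those lower under the wild-type label 3 with the 60th percentile floor, 13 at 1.5-fold and 1 at 3-fold. From 8 to 24 h the knockout-labelled count was 15 at 1.5-fold and 3 at 3-fold, and the wild-type-labelled one 3 with the 60th percentile floor or the added floor value, 14 at 1.5-fold and 2 at 3-fold. At 2-fold, responses differed for 6 members at 4 h, 13 at 8 h, 12 at 24 h and 16 between 8 and 24 h. The shares of all tested genes past this response size, or past 1.5-fold or 3-fold, were not counted. Member counts at those sizes therefore have no background to be read against. The 8 to 24 h count at 4-fold was 3 with the 60th percentile floor or the added floor value, and the 24 h one 0 with array medians, the added floor value or the probe set median.

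In the stimulation test 1 member rose at 8 h with array medians, the 20th percentile floor or the added floor value (Idi1, limma adjusted p = 0.0473, 0.0466 and 0.0382), and 0 rose at 24 h with the 60th percentile floor, the probe set median, no filter, no variance trend or no genotype term (0.0671, 0.0705, 0.235, 0.0574 and 0.0997). Leaving out 1 array at a time gave 0 to 0 members risen and 0 to 1 fallen at 4 h, 0 to 2 and 0 to 1 at 8 h, and 0 to 1 and 0 to 1 at 24 h. The counts of 2 at 8 h came without either 24 h array. Of 37 member values, 270 recalculations kept the direction in 270, with 5 calls lost, 3 gained and 19 untested values moved. Only values of at least 2-fold were taken, on the same arrays, and one that came to 0 counted as kept. A reversal was thus unlikely from the start, and the kept direction is no independent support. Signals under the floor limit Mvk, Tm7sf2, Acaca, Scd1, Dhcr7, Abca1 and Fads2. At 8 h the wild-type-labelled signals of Pmvk (154.6) and Mvd (174.4) lay close to the floor of 141.88, which limits their differences too.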

Other observations

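Of 11 tested genes of fatty acid uptake and storage, 4 exceeded the 2-fold size under the knockout label at 8 h, beside 10.7% of all genes, and 5 at 24 h, beside 9.15%. At 8 h 6 of the 11 lay below 0, with a list median of -0.135, among them Dgat1, which makes triglyceride, at -0.71 and Mgll, a monoglyceride lipase, at -0.77. The examples that follow were chosen after their values were seen. Plin2, a coat protein of lipid droplets, gave 3714, 3142, 3219 and 2795 in knockout-labelled arrays at 0, 4, 8 and 24 h, against 1732, 459.6, 396 and 333 in wild-type-labelled ones. Lpl, the lipoprotein lipase, gave 262, 2653, 9294 and 2119 under the knockout label, against 115, 99.7, 543 and 182 under the wild-type label. The scavenger receptor Cd36 gave 193, 72.3, 168 and 2134 under the knockout label, against 423, 123, 100.3 and 36.5 under the wild-type label. Macrophages are known to express all 3 genes, and the 16 tested monocyte and macrophage genes had medians of 1.15, 2.60, 2.74 and 2.16 over the same array pairs; their part in these values was not tested.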
